A study of Mus musculus with 6 samples.

Results

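The IGF binding proteins are 7 secreted proteins, Igfbp1 to Igfbp7, and their transcripts were examined in mouse liver. All probe sets whose platform annotation names 1 of the 7 genes were taken, which gave 14 of the 38195 non-control probe sets, or 7 of the 18029 named genes, in the table. Igfbp4 is covered by 6 probe sets, Igfbp3 and Igfbp5 by 2 each, and the other genes by 1 each. Probe sets of 1 gene measure the same transcript and are not replicates of one another.

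Livers came from mice lacking RECS1 in hepatocytes (genotype RECS1-HKO, n = 3, called HKO) and from mice with floxed RECS1 (genotype RECS1-flox, n = 3, called control). RECS1 is an older name of Tmbim1, which encodes a membrane protein of the TMBIM family. Both genotypes were C57BL/6, began a high-fat diet at 8 weeks of age, ate it for 8 weeks and were 16 weeks old at sampling. The labels state neither the promoter that drove the deletion nor the sex of the animals. Each array holds 1 of the 3 biological samples of its genotype.

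IGF binding proteins hold insulin-like growth factors in the circulation and in tissues and regulate their access to the IGF1 receptor. In the liver, hepatocytes are a main source of circulating IGF1, of the acid-labile subunit Igfals and of Igfbp1 and Igfbp2. Insulin represses Igfbp1 transcription, in large part by excluding FoxO factors from the nucleus. In rat liver, non-parenchymal cells are known as the main source of Igfbp3. Igfbp7 binds IGFs weakly and is often called an IGFBP-related protein.

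Values are log2 intensities, in which 1 unit is a doubling of signal. Array medians lay between 3.92 and 3.95, and the median probe set, averaged over the 6 arrays, stood at 3.94. All 14 IGFBP probe sets had a mean above it. All 9 measured hepatocyte markers also stood above it and none passed the test between genotypes. The targeted gene Tmbim1 had values of 7.19, 7.14 and 7.06 in HKO livers, against 7.62, 7.58 and 7.74 in control livers, a log2 difference of -0.52 ± 0.08 (SE; limma adjusted p = 0.0338). No source used here says whether its probe set lies within the deleted exons. With 3 arrays a genotype, precision is limited by the array number throughout.

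Of the 7 genes, Igfbp1 rose in HKO liver to 2.05 times the control level, and no other member passed the test. Igfbp2 and Igfbp6 had lower values in all 3 HKO livers than in all 3 control livers, without passing. Igfbp3, Igfbp4, Igfbp5 and Igfbp7 overlapped between the genotypes. Counted by probe set, 1 of 14 passed a Benjamini-Hochberg adjusted p of 0.05 in limma, where 0.702% of all probe sets did, 0.367% upward. The groups did not overlap in 3 of the 14 (1 higher and 2 lower in HKO), against 16.9% of all probe sets (7.8% higher and 9.15% lower). An unadjusted p under 0.05 was reached by 3 of the 14, against 11.8% of all. With 14 probe sets, the last 2 counts are near what the whole array gives. The median difference of the 14 probe sets was -0.0028, and that of all probe sets was -0.0035.

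**Figure D1:**
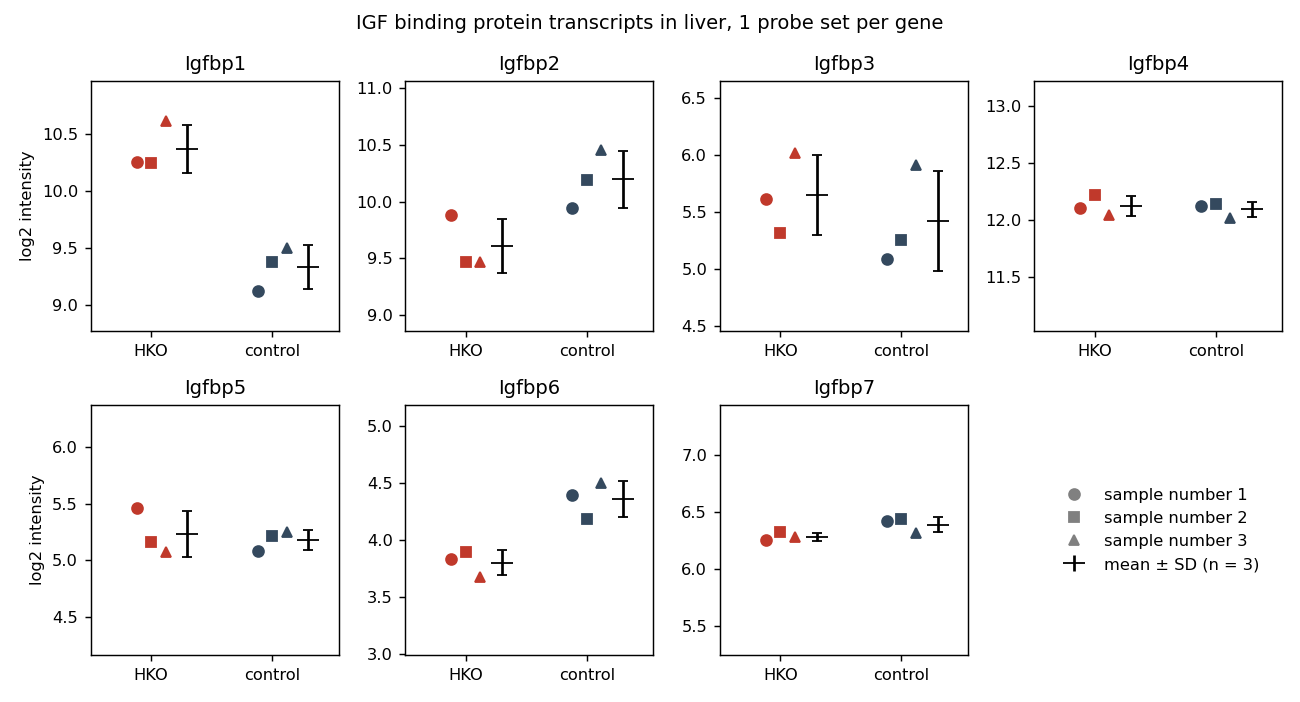
Log2 intensity of each IGFBP gene in the 3 HKO livers (red, left) and the 3 control livers (dark blue, right), by the brightest probe set of each gene. Every panel spans the same number of log2 units, symbols give the sample number and black bars the mean ± SD (n = 3). Igfbp1 sits between 10.2 and 10.6 in HKO livers and between 9.12 and 9.499 in control livers, while Igfbp2 and Igfbp6 sit lower in HKO livers.

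Igfbp1 is the member that insulin represses and that fasting and several stresses induce in liver. Its probe set (1418918_at) had values of 10.251, 10.245 and 10.612 in HKO livers, against 9.12, 9.37 and 9.499 in control livers. The lowest HKO liver lay above the highest control liver, and the 3 livers of each genotype spread by 0.21 (HKO) and 0.19 (control) log2 units (SD). The log2 difference was 1.04 ± 0.13 (SE, 95% interval 0.74 to 1.34), or 2.05-fold (interval 1.67 to 2.53; limma adjusted p = 0.0126). In limma, the adjusted p was 0.0567 without control 2 and 0.0584 without HKO 1, so the call was lost there, and in the other 4 fits without 1 array Igfbp1 passed. Among the 96 genes that rose by their brightest probe set (0.532% of 18029), Igfbp1 ranked 56 by size of change. More RNA per hepatocyte and more cells that make a transcript cannot be told apart in whole liver, for this and every gene below.

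The start of the Igfbp1 gene is shown because it carries the element through which insulin is known to act on this gene. The sequence is RefSeq's for GRCm38.p6, chr11:7197537-7197836, plus strand, from 250 bases before the annotated start to 50 bases after it. The capitals mark the insulin response unit, a pair of FoxO-binding arms facing each other, which begins 108 bases before the start (positions -108 to -91).
Igfbp1: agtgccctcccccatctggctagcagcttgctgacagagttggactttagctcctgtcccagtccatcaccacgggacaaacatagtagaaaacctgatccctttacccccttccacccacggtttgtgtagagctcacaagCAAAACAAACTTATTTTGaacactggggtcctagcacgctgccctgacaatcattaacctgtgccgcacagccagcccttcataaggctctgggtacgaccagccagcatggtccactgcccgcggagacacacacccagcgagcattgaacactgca

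Promoter windows of the same length were searched on both strands for these letters. All 7 members have an entry in the table, with 8 windows in all because Igfbp2 has 2 annotated starts. The first arm, CAAAACAA, stood in 2.51% of the 32851 windows of the genome and the second arm, TTATTTTG, in 1.66%. Among the 8 IGFBP windows each arm stood in that of Igfbp1 alone. The whole unit, CAAAACAAACTTATTTTG, overlaps both arms and was found in 1 window, that of Igfbp1, from which its letters come. The consensus FoxO site GTAAACA, present in 3.65% of all windows, was in 0 of the 8. A match is a description of the letters and shows no binding in these livers.

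Igfbp2, like Igfbp1, is made by hepatocytes and secreted into plasma. Its probe set (1454159_a_at) had values of 9.88, 9.47 and 9.47 in HKO livers, against 9.95, 10.19 and 10.45 in control livers. HKO 1 lay only just below control 1, while the other HKO livers lay well below every control liver. The log2 difference was -0.59 ± 0.15 (SE, 95% interval -0.94 to -0.24), or 0.665 times the control level, and did not pass (limma adjusted p = 0.181). Without 1 array the difference lay between -0.73 and -0.46, and it passed in none of these 6 fits.

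The first annotated start of Igfbp2 is given for contrast with that of Igfbp1. It is RefSeq's GRCm38.p6 sequence at chr1:72824230-72824529, plus strand, with capitals for the GC box GGGCGG, a binding site of the factor Sp1.
Igfbp2: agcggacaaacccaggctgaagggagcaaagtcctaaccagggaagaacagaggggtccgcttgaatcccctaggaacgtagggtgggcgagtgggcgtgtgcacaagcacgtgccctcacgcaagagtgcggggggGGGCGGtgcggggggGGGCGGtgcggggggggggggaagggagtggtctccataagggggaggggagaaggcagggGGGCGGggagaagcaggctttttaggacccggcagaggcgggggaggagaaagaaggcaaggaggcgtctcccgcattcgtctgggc

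The GC box stood 3 times in this window, 0 times in the window of the second Igfbp2 start and 0 times in that of Igfbp1, and on either strand in 35.7% of all windows. The GC content was 67.0% in the first and 57.3% in the second Igfbp2 window and 54.3% in the Igfbp1 window, against a median of 52.7% over all windows. None of these 3 windows holds the TATA box letters TATAAA, which 13.6% of all windows hold.

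Igfbp6 prefers IGF2 over IGF1 as its ligand. Its probe set (1417933_at) had values of 3.83, 3.89 and 3.68 in HKO livers, against 4.39, 4.19 and 4.50 in control livers. The groups did not overlap, and the HKO mean of 3.80 ± 0.11 lay below the median probe set while the control mean of 4.36 ± 0.16 lay above it (SD, n = 3 each). The log2 difference was -0.56 ± 0.10 (SE, 95% interval -0.80 to -0.32), or 0.678 times the control level (limma adjusted p = 0.0612). Igfbp6 passed in limma with the median of the probe sets of each gene (adjusted p = 0.0451) and with probe sets above the median only (0.044). It also passed with the trend and robust options (0.0486), and in none of the 6 fits without 1 array (0.0785 to 0.202). With all 6 arrays it did not pass in limma after quantile normalization (0.0617) or median centring (0.0603). Nor did it pass with the brightest probe set of each gene (0.054), array weights (0.0715) or a block for the replicate number (0.132). Igfbp6 has 1 probe set, so its difference was the same in the passing fits. Its mean over the 6 arrays (4.08) cleared the median filter only through the control livers. Signal near the median of the array is dim, and RMA shrinks differences there.

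Markers of the non-parenchymal cells that could carry such transcripts were measured in the same livers. None of 14 stellate cell and fibroblast markers passed, and their summed linear intensity was 2065 to 2854 in HKO livers and 2152 to 2661 in control livers. The lowest p in that list belonged to the matrix proteoglycan Lum, at -0.41 (adjusted p = 0.475), and to Des, the muscle-type filament of stellate cells, at 0.16 (0.538). The other probe set of Des stood at -0.09. None of 14 endothelial markers passed, with sums of 1768 to 1946 in HKO livers and 1759 to 2106 in control livers, with the endothelial receptor Tie1 at -0.35 (0.134) and the endothelial protein Oit3 at -0.19 (0.475). None of 13 Kupffer cell and macrophage markers passed, with sums of 4028 to 4573 in HKO livers and 3440 to 5066 in control livers, and with Ccr2 at -0.36 (0.218) and Itgam at -0.36 (0.541) as the 2 with the lowest p. Differences in that list ran from -0.36 to 1.03 with a median of 0.04, and another probe set of Ccr2 stood at 0.17. None of 6 measured cholangiocyte markers passed, but by their brightest probe sets all 6 had negative differences, with Sox9 at -0.66 (0.183) and Krt7 at -0.22 (0.434). The 3 probe sets of Sox9 ran from -0.66 to -0.23, and the other probe set of Epcam stood at 0.016. The sums of the 6 brightest probe sets did not overlap, at 54.7 to 60.0 in HKO livers against 69.1 to 70.8 in control livers. Of the 6 markers, 1 stood above the median probe set. The part of cholangiocytes in the Igfbp2 and Igfbp6 values was not tested. Hepatocyte markers stayed between -0.10 and 0.08, with Ttr at 0.08 (0.737) and Cps1 at -0.10 (0.810).

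**Figure D2:**
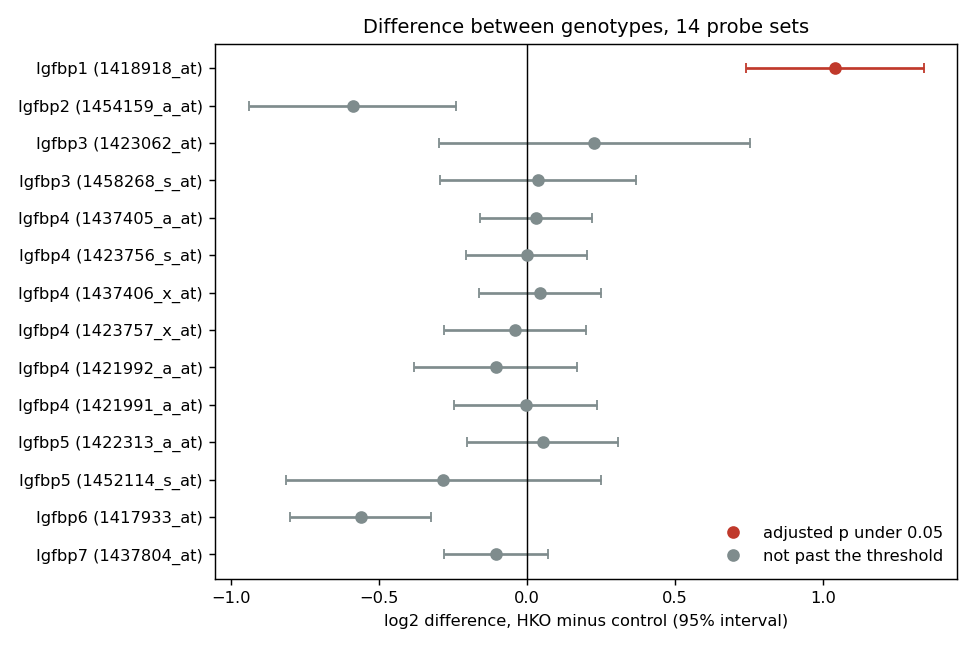
Log2 difference (HKO minus control) of each of the 14 IGFBP probe sets with its 95% interval from limma, not adjusted for the number of probe sets. Igfbp1 (red, adjusted p under 0.05) stands at 1.04, Igfbp2 at -0.59 and Igfbp6 at -0.56, and the intervals of the other 11 probe sets include 0.

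Igfbp3 carries most IGF in the circulation, in a ternary complex with Igfals, and is the next coding gene to Igfbp1 on chromosome 11 (GRCm38.p6 annotation). Its brighter probe set (1423062_at) had values of 5.61, 5.32 and 6.01 in HKO livers, against 5.09, 5.26 and 5.92 in control livers. Each genotype had 1 high liver, numbered 3 in both, and the ranges overlapped almost fully. The log2 difference was 0.23 ± 0.23 (SE, 95% interval -0.30 to 0.75; limma adjusted p = 0.765). The other probe set (1458268_s_at) stood at 0.04 ± 0.15 (adjusted p = 0.95), and liver 3 was again the highest of each genotype. The neighbouring gene pair therefore had a passing rise in Igfbp1 and, for Igfbp3, an interval that reaches from a fold of 0.814 to 1.68.

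Igfbp4, an inhibitory binding protein that the protease Pappa cleaves, was covered by the most probe sets. Its brightest probe set (1437405_a_at) had values of 12.10, 12.22 and 12.04 in HKO livers, against 12.118, 12.135 and 12.018 in control livers. The 6 probe sets had log2 differences between -0.11 and 0.04, with adjusted p between 0.795 and 0.998 (limma). Their 95% intervals all lay within -0.38 and 0.25. Within each genotype the 6 probe sets ranked liver 3 lowest, in HKO and in control alike. The suffixes _s_at and _x_at mark probe sets whose probes can match more than 1 transcript, and the Igfbp4 probe sets that carry them had differences between -0.04 and 0.04.

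Igfbp5, which binds extracellular matrix, lies next to Igfbp2 on chromosome 1, and its 2 probe sets went apart. The brighter (1422313_a_at) had values of 5.46, 5.17 and 5.08 in HKO livers, against 5.08, 5.22 and 5.25 in control livers. The difference was 0.05 ± 0.11 (SE, adjusted p = 0.896). The dimmer (1452114_s_at) had values of 4.37, 5.46 and 4.67 in HKO livers, against 5.001, 5.154 and 5.192 in control livers. Its spread was 0.56 in HKO and 0.10 in control livers (SD), with HKO 2 above and HKO 1 and HKO 3 below all control livers. Its difference was -0.28 ± 0.23 (adjusted p = 0.703). HKO 1 was the highest HKO liver by the first probe set and the lowest by the second.

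Igfbp7 had values of 6.25, 6.32 and 6.28 in HKO livers, against 6.42, 6.44 and 6.31 in control livers (1437804_at). HKO 2 lay just above control 3, so the groups overlapped narrowly. The difference was -0.11 ± 0.08 (SE, 95% interval -0.28 to 0.07; limma adjusted p = 0.660), the smallest spread of any member being that of its HKO livers (SD 0.036).

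**Figure D3:**
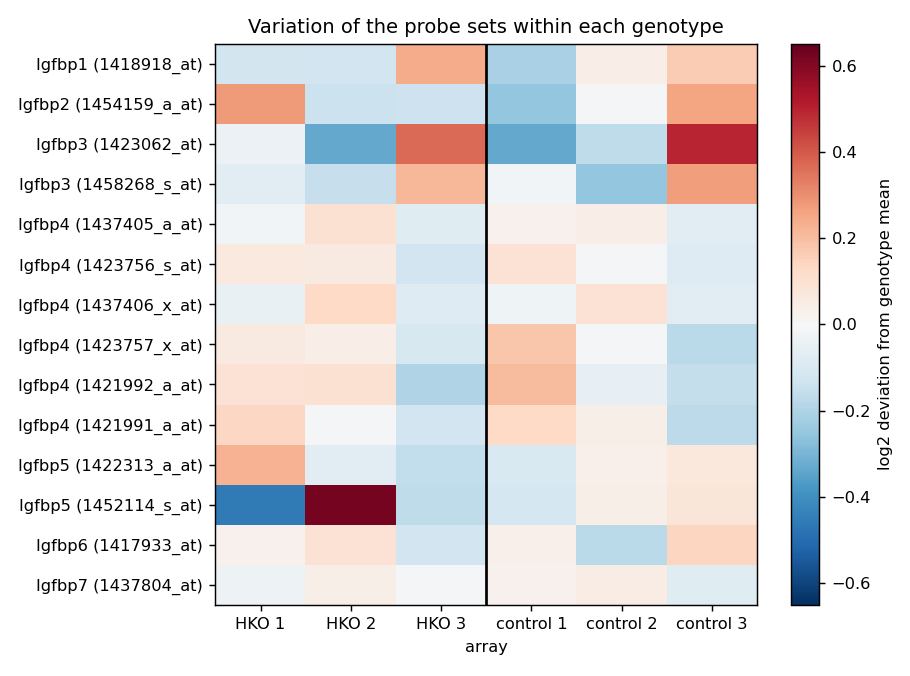
Deviation of every IGFBP probe set (rows) in every array (columns) from the mean of its own genotype, in log2 units, red above and blue below. The 6 Igfbp4 rows are all lowest in HKO 3 and in control 3, the 2 Igfbp3 rows are highest there, and the second Igfbp5 row spans -0.46 to 0.62 among HKO arrays.

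Livers of 1 genotype thus differed among themselves in several members. HKO 3 and control 3 were the highest of their genotype for Igfbp1 and both Igfbp3 probe sets and the lowest for all 6 Igfbp4 probe sets. They went opposite ways for Igfbp6 and Igfbp5 1422313_a_at, where HKO 3 was the lowest HKO liver and control 3 the highest control liver. For Igfbp2 and Igfbp5 1452114_s_at control 3 was also the highest control liver, while HKO 3 lay below the HKO mean. For Igfbp7 control 3 was the lowest control liver and HKO 3 lay between the other HKO livers. The labels do not say that sample numbers are shared between genotypes, and over all probe sets the deviations of same-numbered livers correlated at -0.076, 0.060 and 0.10, given as a description.

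Whether the genotype difference of Igfbp1 differed from that of each other member was tested within arrays, as the log2 difference between the brightest probe sets. Against Igfbp2, Igfbp1 stood at 0.76 ± 0.39 in HKO livers and -0.86 ± 0.08 in control livers (mean ± SD, n = 3 each), a change that was 1.63 log2 units larger in Igfbp1. Against Igfbp6 the change was 1.599 larger, against Igfbp7 1.14, against Igfbp4 1.01, against Igfbp5 0.98 and against Igfbp3 0.81. The 6 comparisons share the Igfbp1 values, so they are not independent and in part restate its rise. In each the 3 HKO livers lay above the 3 control livers. Each had an exact two-sided permutation p of 0.1, the smallest that 3 against 3 allows, and 0.1 after Benjamini-Hochberg adjustment over the 6, so the design cannot reach 0.05. These are differences in change between genotypes, since intensities of different probe sets do not compare the levels of genes.

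The proteins that the binding proteins act on were read from the same arrays, each gene by its brightest probe set. None of 7 genes of IGF ligands, receptors and the ternary complex passed, with differences between -0.11 and 0.08 and a median of -0.05, where the median of all 18029 genes was -0.0041. At the level of genes 0.915% passed. The IGF2 and mannose 6-phosphate receptor Igf2r stood at -0.11 (limma adjusted p = 0.712) and the signalling receptor Igf1r at -0.07 (0.828). The probe sets of Igf1r ran from -0.13 to 0.24. The ligand Igf1 and the subunit Igfals are singled out here after their values were seen, as the partners of Igfbp3 made in liver. Igf1 had values of 11.28, 11.26 and 11.17 in HKO livers, against 11.29, 11.26 and 11.17 in control livers, a difference of -0.0024 ± 0.079 (SE, 95% interval -0.18 to 0.18). Igfals stood at -0.09 ± 0.12 (adjusted p = 0.828).

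None of 11 proteases of IGF binding proteins and their inhibitors passed. Stc1, a stanniocalcin, of the family that inhibits Pappa, stood at -0.28 ± 0.10 (limma adjusted p = 0.292) and its relative Stc2 at 0.18 ± 0.08 (0.401). Another probe set of each stood near 0, at 0.0054 for Stc1 and -0.0051 for Stc2. None of 10 other proteins that share the IGF-binding domain or were named for it passed. Ccn2, a matricellular growth factor, stood at 0.56 ± 0.22 (0.376), with values of 6.97, 6.98 and 6.93 in HKO livers against 6.27, 6.997 and 5.94 in control livers. Control 2 matched the HKO livers and the other control livers were lower, and without control 2 the difference was 0.86 and passed (0.0392). Crim1, a membrane protein with an IGFBP-like domain, stood at -0.14 (0.607), and its other probe set at 0.03.

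Genes that respond to insulin and FoxO in liver were set beside Igfbp1. None of the 16 measured passed, and 8 had an unadjusted p under 0.05, against 12.5% of all genes. Their directions were mixed, with a list median of -0.12 and a range from -0.60 (Angptl8) to 0.71 (Pdk4). The list was not split by whether insulin induces or represses a gene, so its median and signs cannot show a shared response. The 2 with the lowest p were Txnip, a glucose-induced arrestin, at -0.56 ± 0.13 (adjusted p = 0.135), and G6pc, the last enzyme of gluconeogenesis, at 0.36 ± 0.09 (0.163). G6pc had values of 11.31, 11.40 and 11.27 in HKO livers, against 11.00, 11.07 and 10.82 in control livers, without overlap. Of the 16, 3 did not overlap with HKO higher and 4 with HKO lower, against 7.8% and 9.15% of all probe sets. Both counts lie above these shares, but the shares are over probe sets, dim ones included, while all 16 genes stood above the median probe set. No test of the list was run. Other members are named after their values were seen, as textbook FoxO genes. Pck1, the first committed enzyme of gluconeogenesis, stood at -0.25 ± 0.20 (0.694), the insulin receptor substrate Irs2 at -0.33 ± 0.10 (0.236), Foxo1 at -0.19 ± 0.15 (0.679) and Foxo3 at -0.39 ± 0.10 (0.195). Another probe set stood at 0.12 for Pck1, -0.12 for Txnip, 0.0086 for Foxo1 and -0.06 for Foxo3. On the positive side was the pyruvate dehydrogenase kinase Pdk4 at 0.71 ± 0.30 (0.398), the largest positive value of the list. The coactivator Ppargc1a at 0.44 ± 0.29 (0.621) and Sesn3 at 0.14 ± 0.08 (0.524) were also positive. So was Srebf1 at 0.34 ± 0.11 (0.278), named for its sign, so the list held differences of both signs.

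**Figure D4:**
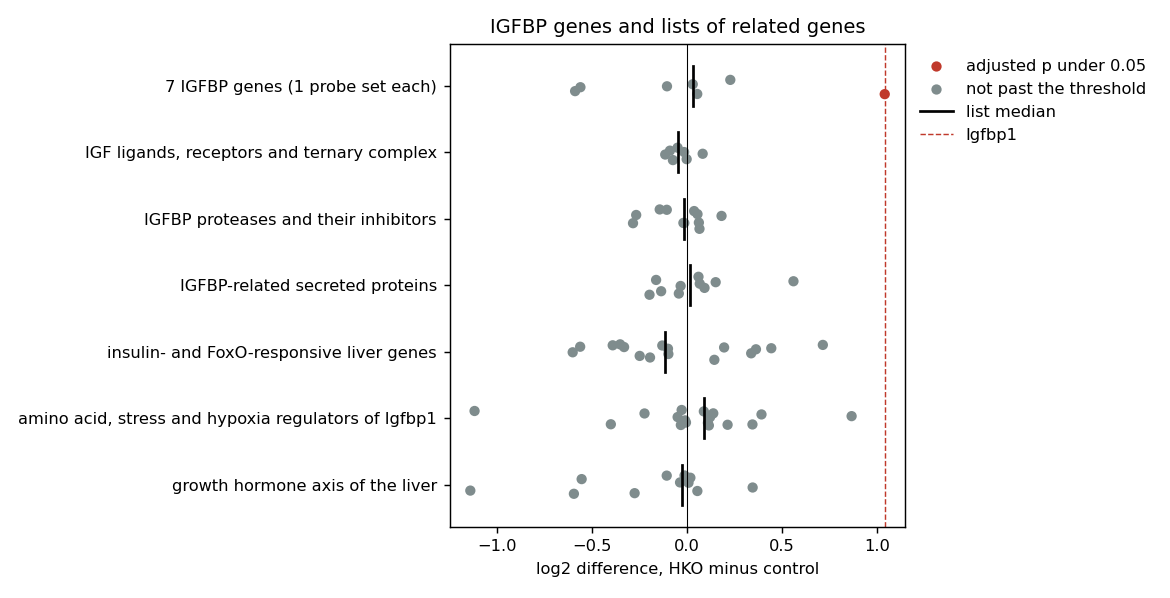
Log2 difference (HKO minus control) of the 7 IGFBP genes and of each gene in 6 lists of related genes, each by its brightest probe set, with black bars for medians, red for adjusted p under 0.05 and a dashed line at Igfbp1. Igfbp1 at 1.04 is the only red point, and the IGF ligands and receptors lie between -0.11 and 0.08.

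None of 17 measured genes tied to amino acid shortage, stress and hypoxia passed, a list that holds responding genes as well as regulators of Igfbp1. Ddit4, a stress-induced inhibitor of mTORC1, stood at 0.86 ± 0.24 (limma adjusted p = 0.204), with values of 7.23, 7.58 and 6.76 in HKO livers against 6.24, 6.76 and 5.97 in control livers. HKO 3 and control 2 met at the border, and in the fit blocked on replicate number Ddit4 passed (limma adjusted p = 0.012). The stress factor Atf3 stood at 0.39 ± 0.15 (0.366). None of 12 genes of the growth hormone axis passed, with a median of -0.03. The feedback inhibitor Socs3 stood at -0.59 ± 0.15 (0.178) and passed by the median of its 3 probe sets (-0.48, 0.0407), and the nuclear receptor Hnf4a stood at -0.28 ± 0.12 (0.409). The 4 probe sets of Hnf4a ran from -0.28 to 0.21.

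Over the 6 lists together, 73 genes were measured and 0 passed in limma, while 17 had an unadjusted p under 0.05. Of all 18029 genes, 0.915% passed and 12.5% had an unadjusted p under 0.05. With 73 genes, a count of 0 is near the first share, while a count of 17 lies above the second. No test of the lists was run, and they were chosen with earlier results of these data known. Of the 73, 2 had a larger absolute difference than Igfbp1. These were the repressor Bcl6 at -1.14 ± 0.69 (adjusted p = 0.585) and the amino acid response gene Asns at -1.12 ± 0.59 (0.521), named for that reason after their values were seen. Asns was at 7.04 in control 1 and between 3.85 and 4.74 in the other 5 livers. None of the 73 had a positive difference as large as that of Igfbp1.

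The genes whose values followed Igfbp1 most closely were found by the mean absolute difference over the 6 arrays, after each gene was centred on its control mean, among named probe sets above the median. The rule picks genes with a like difference between genotypes, so their differences are a description. Rab30, a small GTPase of the Golgi, was the closest, at a mean distance of 0.080 log2 units, with a difference of 1.06. Acot2, a mitochondrial acyl-CoA thioesterase, followed at 0.082 (difference 0.99), then the peptidase Mme (neprilysin) at 0.11 (1.05), the lipid-regulating nuclear receptor Pparg at 0.11 (1.00) and the AP-1 subunit Jun at 0.11 (1.22). For all 5, as for Igfbp1, HKO 3 was the highest HKO liver and HKO 2 the lowest. The rule compares the genes array by array, so it also favours a like order of the livers. For Igfbp1 itself HKO 1 and HKO 2 were nearly equal (10.251 and 10.245). The other probe set of Acot2 stood at 0.58 and that of Mme at 0.62.

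**Figure D5:**
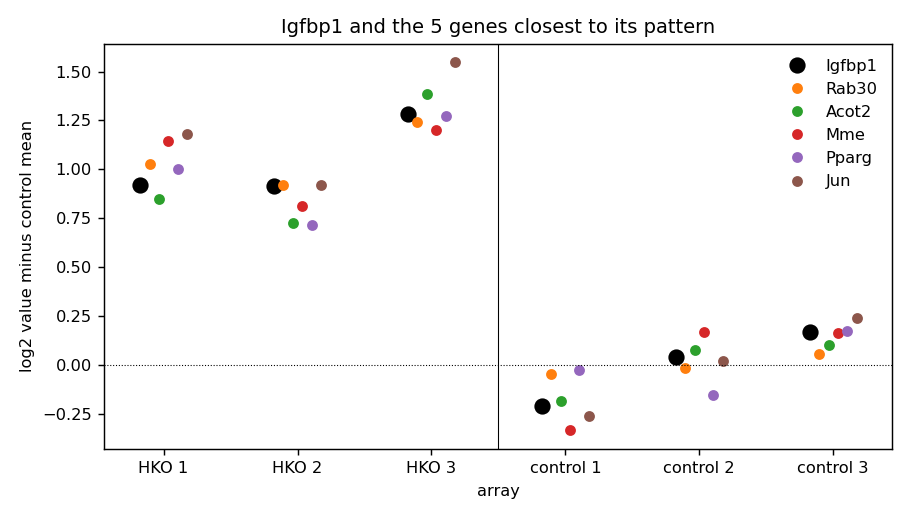
Log2 values minus the control mean, by array, for Igfbp1 (large black points) and the 5 genes closest to its pattern. In the HKO arrays all 6 genes lie above all of their own control values, and HKO 3 is the highest of each.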

How the data were processed

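Liver RNA (400 ng a sample) of 3 HKO and 3 control mice was measured on Affymetrix arrays, 1 array a mouse. The deposited values are log2 intensities. Per the submitters' processing notes the authors used RMA and limma, with no version or setting given. RMA equalises the distributions of the arrays, which hides any shift shared by all transcripts. The table holds 38208 probe sets, of which 13 controls were left out, 34325 have 1 gene symbol in the platform annotation, 62 several and 3808 none here.

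Each of the 38195 probe sets was tested for HKO minus control with limma 3.58.1 under R 4.3.3 (lmFit, then a two-sided eBayes test), adjusted by Benjamini-Hochberg over all of them at 0.05. Exact permutation tests used SciPy 1.17.1. The fit was tested on simulated data. In lists, a gene stands for its brightest probe set, and the 2 members with the lowest p are named unless stated. The members and lists were chosen with earlier results of these data known. Alternatives were quantile normalization, median centring, a filter on dim probe sets, 1 value a gene, array weights, trend and robust options, a block for the replicate number, other thresholds and leaving out each array. No block was used, since over all probe sets the deviations of same-numbered samples correlated at -0.076, 0.060 and 0.10, which is not above 0.1 in every pair. Deviations within a genotype are tied to each other through their mean, so these values cannot settle whether the samples were paired. Results with the block are given below.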

Additional observations from a re-analysis of the deposited data

How the results depend on the processing

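Igfbp1 kept its direction in every fit run, with differences from 0.92 to 1.12 without 1 array. Of the 14 IGFBP probe sets, 1 passed, and 2 passed (Igfbp1 and Igfbp6) among probe sets above the median, with the trend and robust options, with the median of each gene's probe sets and at a threshold of 0.1. At a threshold of 0.01 the count was 0, and without 1 array it was 0 to 1. With the replicate block, 1 passed (Igfbp1, adjusted p = 0.0076). Over all probe sets 268 passed, 468 at a threshold of 0.1, 83 at 0.01, 221 with the replicate block, and 87 to 197 without 1 array. Of the list genes 0 passed, but 1 did with the replicate block (Ddit4), 1 with the median of probe sets (Socs3), and 0 to 1 without 1 array (Ccn2, without control 2). The sign of small differences was not stable. Without 1 array, the Igfbp3 probe set 1458268_s_at lay between -0.089 and 0.173, Igfbp5 1422313_a_at between -0.061 and 0.132, and the Igfbp4 probe sets 1437405_a_at between -0.021 and 0.070, 1423756_s_at between -0.043 and 0.061, 1437406_x_at between -0.023 and 0.090, 1423757_x_at between -0.128 and 0.050 and 1421991_a_at between -0.089 and 0.062. Igfbp4 1437405_a_at stood at -0.032 after quantile normalization, and Igfbp5 at -0.115 with its probe sets taken at their median. The within-array comparisons of Igfbp1 with the other members kept their direction in all alternatives run. The causes of these changes were not tested.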
